A study of Mus musculus with 12 samples.

Results

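A set of 10 acute phase and iron-handling genes other than serum amyloid A was followed in mouse lung after acute lung injury (ALI): Lcn2, Hp, Cp, Steap4, Orm1, Orm2, Serpina3n, Serpina3m, Itih4 and Lrg1. The members were chosen by symbol, with earlier results of these data known. Each symbol matched 1 line of the table, and the members are 10 of its 54532 genes. Of these 10, 9 had enough counts to be tested among 16185 genes, and Serpina3m did not. The study measured lung RNA by bulk sequencing in 12 mouse samples, 6 labelled control and 6 labelled acute lung injury (ALI). The series design names drowning in seawater as the source of the injury. Strain, age, sex, the dose of seawater and the time of collection are not given in the sources used here, and no allele or other agent is named in either group. The labels do not tie samples to animals, and p-values therefore speak of sample-to-sample spread that could be technical in part.

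Acute phase proteins are plasma and secreted proteins whose synthesis rises during inflammation, mainly in the liver but also in epithelium, macrophages and fat. Their genes are known to respond to IL-6, through the transcription factors STAT3 and C/EBP, and to IL-1 and TNF, through NF-kB and C/EBP. Several of the proteins withhold iron or haem from microbes, others block proteases or carry small molecules in plasma. In lung, Lcn2 is known from airway and alveolar epithelium, macrophages and neutrophils, and Hp from alveolar epithelium.

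Total counts ran from 15707937 to 19706494 per sample, and values are given as CPM, read counts scaled to a common library size with TMM factors. The samples held lung transcripts throughout, with all 9 alveolar type 2 cell markers tested and summed levels of 22040 to 29189 CPM in controls and 20411 to 25832 CPM in ALI. Control 5 stood apart. Its 10 adipocyte markers summed to 11091 CPM against 62.5 to 93.3 CPM in the other controls, with 2858 CPM of Ucp1, the uncoupling protein of brown fat. ALI 2 held 693 CPM of the same markers against 59.0 to 76.7 CPM in the other ALI samples. Fat is a known source of acute phase transcripts, and changes of the tested members are given with all samples and again without control 5. The part of adipose transcripts in each result was not tested.

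Promoter windows of members that rose together are shown here because C/EBP, STAT3 and NF-kB are the factors known to act on acute phase genes. RefSeq windows of 300 bases on GRCm38.p6, from 250 bases before to 50 after the annotated start, matched 7 of the 10 members by symbol, with 2 starts for Cp. Capitals mark matches on either strand to TTGCNNAA (C/EBP), TTCNNNGAA (STAT3), CTGGGAA (the IL-6 response element of acute phase genes) or the NF-kB consensus. No match overlapped a match of another motif in the windows shown. The Lcn2 window is chr2:32387690-32387989 on the minus strand, that of Steap4 chr5:7960222-7960521, of Orm2 chr4:63362199-63362498 and of Itih4 chr14:30886226-30886525, all on the plus strand.
Lcn2: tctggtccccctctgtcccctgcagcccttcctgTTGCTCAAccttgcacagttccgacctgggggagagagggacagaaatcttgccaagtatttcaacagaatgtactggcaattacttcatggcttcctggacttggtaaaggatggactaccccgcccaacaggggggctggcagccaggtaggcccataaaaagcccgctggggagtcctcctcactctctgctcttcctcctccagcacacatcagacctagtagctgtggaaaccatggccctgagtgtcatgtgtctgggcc
Steap4: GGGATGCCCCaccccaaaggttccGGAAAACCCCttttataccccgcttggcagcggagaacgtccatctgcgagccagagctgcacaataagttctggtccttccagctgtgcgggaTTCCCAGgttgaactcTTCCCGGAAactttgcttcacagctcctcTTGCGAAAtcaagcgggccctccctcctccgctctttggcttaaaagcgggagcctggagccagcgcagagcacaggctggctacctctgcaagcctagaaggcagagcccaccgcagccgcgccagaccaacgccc
Orm2: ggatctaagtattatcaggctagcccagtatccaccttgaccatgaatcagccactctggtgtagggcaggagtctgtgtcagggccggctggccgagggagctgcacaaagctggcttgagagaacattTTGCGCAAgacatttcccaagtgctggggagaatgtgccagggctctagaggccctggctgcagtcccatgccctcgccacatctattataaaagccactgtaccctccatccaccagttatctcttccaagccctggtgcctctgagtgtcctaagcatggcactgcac
Itih4: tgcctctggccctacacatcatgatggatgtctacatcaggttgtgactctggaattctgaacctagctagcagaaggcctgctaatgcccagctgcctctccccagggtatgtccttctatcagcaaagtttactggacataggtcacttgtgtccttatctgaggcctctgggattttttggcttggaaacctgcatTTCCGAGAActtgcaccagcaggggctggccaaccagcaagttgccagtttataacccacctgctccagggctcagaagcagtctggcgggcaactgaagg
Positions below are those of the first base of a match in the printed 5′ to 3′ direction, counted from the annotated start with the base before it as -1. Lcn2 had a C/EBP match at -216 and Orm2 had TTGCGCAA, which reads the same on both strands, at -120. Steap4 was the member with all 4 kinds, with NF-kB matches at -250 and -226, the IL-6 response element at -132, STAT3 at -116 and C/EBP at -87. Itih4 had a STAT3 match at -51. Lrg1, not printed, had the IL-6 response element at -102, the downstream Cp start a C/EBP match at -70, and Serpina3n had none. C/EBP matches were present in 4 of the 8 member windows and in 10.8% of 32851 windows of the same length in the table. STAT3 matches were present in 2 of 8 and in 8.30% of all windows, the IL-6 response element in 2 of 8 and in 11.1%, and NF-kB in 1 of 8 and in 4.51%. A match is a description of letters and says nothing about binding, and neither does its lack.

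The design contrasts injured with uninjured lung. Of the 9 members tested, 7 rose and none fell, at an edgeR adjusted p under 0.05, where 36.6% of all genes tested were called, 18.9% higher and 17.7% lower. The rises were largest for Lcn2, Orm2 and Steap4, which ranked 56, 75 and 232 among 16185 log2 fold changes, and smaller for Lrg1, Cp, Itih4 and Serpina3n. Hp and Orm1 did not pass the test with all 12 samples. The median log2 fold change was 1.33 over the 9 members tested and -0.06 over all genes. In 6 of the 10 members the lowest ALI sample exceeded the highest control, which held for 13.1% of all genes tested, and in none did the groups separate the other way, as they did for 8.25% of genes. In whole lung, more cells of a type and more RNA per cell cannot be told apart.

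**Figure D1:**
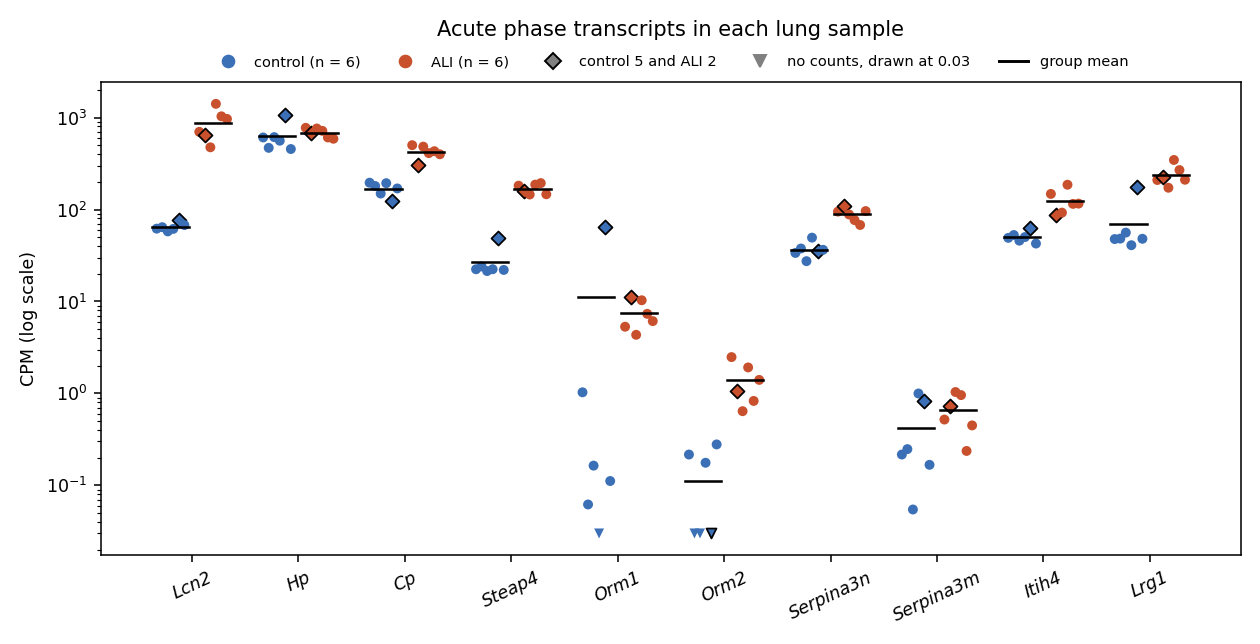
CPM of each member (log axis) in 6 control samples (blue) and 6 ALI samples (orange), with bars at the group means, diamonds for control 5 and ALI 2, and triangles for samples with no counts. Lcn2, Cp, Steap4, Orm2, Serpina3n and Itih4 show no overlap between groups, while control 5 lies among or above the ALI values of Hp, Orm1 and Lrg1.

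Lcn2, Steap4, Cp and Hp handle iron, copper or haem. Lcn2 (ENSMUSG00000026822, chromosome 2, 32384633 to 32388252 on GRCm38, minus strand) encodes lipocalin 2, a secreted protein that binds bacterial siderophores and so denies microbes iron. Its level was 57.8 CPM in the lowest control, 63.1 at the median and 77.1 in the highest, against 475, 833 and 1410 CPM in ALI. The lowest ALI sample, ALI 3, thus stood above the highest control, and ALI 4 held the highest value. The log2 change was 3.74 ± 0.23 (SE, edgeR adjusted p = 7.37e-08). The controls were close to each other, with a coefficient of variation of 10.4% against 38.5% in ALI. Without ALI 4 the mean of the other ALI samples was 763 ± 232 CPM (SD, n = 5) and the log2 change 3.55, while without control 5 it was 3.79.

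Steap4 (ENSMUSG00000012428, chromosome 5, 7960457 to 7982213, plus strand) encodes a membrane metalloreductase that reduces iron and copper, and is known in fat as an inflammation-responsive gene. Its control values were 21.4, 22.4 and 49.0 CPM (lowest, median and highest) and its ALI values 146, 171 and 194 CPM. The highest control was control 5, while the other 5 controls had 22.5 ± 0.970 CPM (SD). The groups did not overlap, and Steap4 rose by 2.65 ± 0.20 log2 units (SE, edgeR adjusted p = 3.34e-07), or 2.91 ± 0.09 without control 5. Among ALI samples its coefficient of variation was 12.5%, above the 11.3% of Hp and below that of the other members.

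Cp (ENSMUSG00000003617, chromosome 3, 19957054 to 20009145, plus strand) encodes ceruloplasmin, the copper-carrying ferroxidase of plasma. Its control values were 122, 175 and 196 CPM and its ALI values 308, 421 and 501 CPM, with no overlap. The rise was 2.51-fold, or 1.33 ± 0.14 log2 units (SE, edgeR adjusted p = 3.73e-06), and 1.25 without control 5. Cp was lowest in control 5 among controls and in ALI 2 among ALI samples, the reverse of Orm1, which was highest in both.

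Hp (ENSMUSG00000031722, chromosome 8, 109575128 to 109579172, minus strand) encodes haptoglobin, which binds free haemoglobin. It had 455, 584 and 1076 CPM in controls and 588, 696 and 774 CPM in ALI, so the ALI values lay inside the control range. The log2 difference was 0.13 ± 0.18 (SE, edgeR adjusted p = 0.628). The highest control value was that of control 5. Without it, the controls had 541 ± 75.3 CPM (SD, n = 5), the log2 difference was 0.34 ± 0.10 and the test was passed (edgeR adjusted p = 0.0126), although the groups still overlapped. With all samples or without control 5, Hp changed less than the 7 members that rose.

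The orosomucoids Orm1 and Orm2 encode alpha-1-acid glycoproteins, plasma lipocalins that bind drugs and lipids. Orm1 (ENSMUSG00000039196, chromosome 4, 63344560 to 63348163, plus strand) and Orm2 (ENSMUSG00000061540, 63362449 to 63365878, plus strand) lie near each other. Orm1 had 65.3 CPM (871 counts) in control 5, 1.03 CPM in control 1, and 0 to 0.164 CPM in the other 4 controls. The ALI samples held 4.34, 6.72 and 11.1 CPM (lowest, median and highest). All 6 ALI values thus lay above 5 of the controls and below control 5. With all samples the log2 difference was -0.56 ± 1.39 (SE, edgeR adjusted p = 0.786), which is no call in either direction. Without control 5 the sign turned and Orm1 passed the test, at 4.68 ± 0.60 (edgeR adjusted p = 2.87e-05). It also passed without both control 5 and ALI 2, the highest ALI sample for Orm1, at 4.53 ± 0.60 (edgeR adjusted p = 4.67e-05).

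Orm2 was near the detection limit in controls, with 0 counts in 3 of them and 3 to 5 counts in the others, or at most 0.279 CPM. In ALI it had 13 to 43 counts, or 0.641, 1.24 and 2.48 CPM (lowest, median and highest). No ALI value reached down to a control value. The fitted log2 change was 3.49 ± 0.62 (SE, edgeR adjusted p = 0.000500), and its size is uncertain because the controls held 12 counts in all. Without control 5 it was 3.28. Control 5, with 871 counts of Orm1, had 0 counts of Orm2. Of the 50-base windows of Orm1 transcripts, 20.4% also occur in Orm2, so some reads could fit both genes.

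The log2 ratio of Orm1 to Orm2 counts, with 0.5 counts added to each, was 2.46 ± 0.81 (SD, n = 6) in ALI, and Orm1 had more counts than Orm2 in each of the 6 ALI samples. In controls the ratio was 2.22 ± 4.70 (SD, n = 6), from -2.81 in control 4 to 10.8 in control 5, a spread set by counts near 0 and by control 5. The difference of 0.24 was within this spread (two-sided exact permutation p = 0.916, adjusted p = 0.916 over 2 ratios, where 0.00216 is the smallest p that 6 against 6 allows).

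Serpina3n, Serpina3m and Itih4 encode relatives of plasma protease inhibitors. Serpina3n (ENSMUSG00000021091, chromosome 12, 104406729 to 104414329, plus strand) encodes an inhibitor of serine proteases such as cathepsin G and belongs to a cluster of mouse genes that together correspond to human alpha-1-antichymotrypsin. Its control values were 27.4, 35.8 and 49.4 CPM and its ALI values 67.9, 91.7 and 110 CPM, with no overlap. It rose 2.43-fold, by 1.28 ± 0.14 log2 units (SE, edgeR adjusted p = 6.62e-06). Control 5, at 35.2 CPM, lay near the middle of the controls, and the change without it was 1.27.

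Serpina3m (ENSMUSG00000079012, chromosome 12, 104338486 to 104394257, plus strand), a neighbour in the cluster, had 1 to 17 counts in controls and 4 to 21 counts in ALI. These counts gave 0.418 ± 0.391 CPM in controls and 0.655 ± 0.309 CPM in ALI (SD, n = 6), and the groups overlapped. It was left out by the filter on low counts, and without that filter the log2 difference was 0.67 ± 0.56 (SE, edgeR adjusted p = 0.418). The log2 ratio of Serpina3n to Serpina3m counts was 6.84 ± 1.17 in controls and 7.15 ± 0.69 in ALI (SD, n = 6), a difference of 0.31 (two-sided exact permutation p = 0.578, adjusted p = 0.916 over 2 ratios). Of the 50-base windows of Serpina3m transcripts 19.1% occur in another gene, most often Serpina3k, against 6.90% for Serpina3n, most often Serpina3f, so both counts carry some uncertainty.

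Itih4 (ENSMUSG00000021922, chromosome 14, 30886476 to 30902353, plus strand) encodes a heavy chain of the inter-alpha-trypsin inhibitor family, an acute phase protein in plasma. It had 42.6, 49.6 and 63.0 CPM in controls and 87.0, 116 and 186 CPM in ALI. The groups did not overlap, and ALI 4 was the highest sample, as it was for Lcn2 and Lrg1. Itih4 rose by 1.29 ± 0.17 log2 units (SE, edgeR adjusted p = 3.99e-05), or 1.14 without ALI 4 and 1.36 without control 5.

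Lrg1 (ENSMUSG00000037095, chromosome 17, 56119678 to 56122001, minus strand) encodes leucine-rich alpha-2-glycoprotein, a secreted protein that modulates TGF-beta signalling in endothelium through endoglin. Its control values were 40.9, 48.2 and 178 CPM and its ALI values 172, 218 and 346 CPM. The groups overlapped by a single pair of samples, control 5 at 178 CPM and ALI 3 at 172 CPM, while the other controls did not exceed 56.1 CPM. Lrg1 rose by 1.78 ± 0.37 log2 units (SE, edgeR adjusted p = 0.00238). Without control 5 the controls had 48.2 ± 5.37 CPM (SD, n = 5), the groups did not overlap and the rise was 2.30 ± 0.16 (edgeR adjusted p = 6.67e-08).

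**Figure D2:**
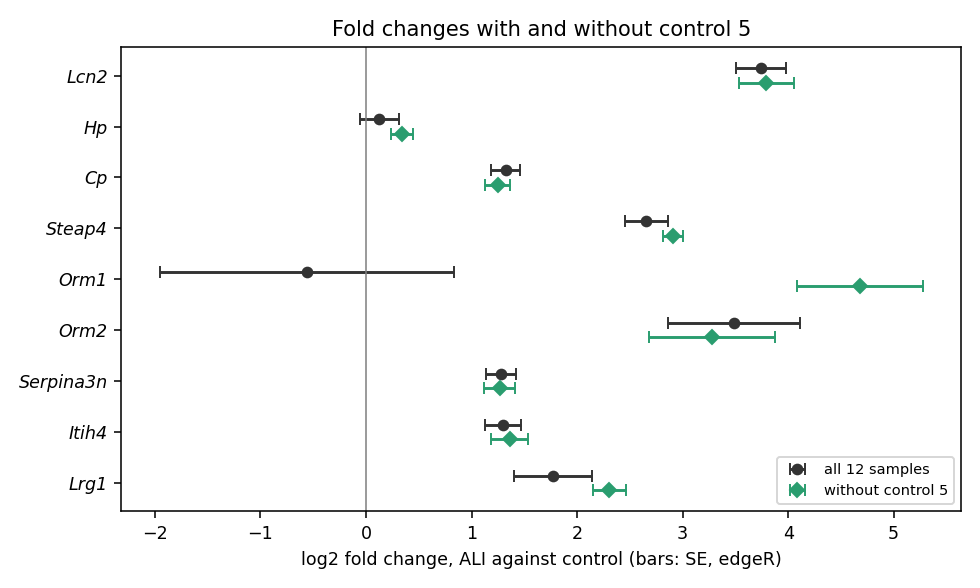
Log2 fold change of ALI against control for the 9 members tested, with SE, from all 12 samples (circles) and without control 5 (diamonds). Orm1 goes from -0.56 to 4.68 and its SE from 1.39 to 0.60, Lrg1 goes from 1.78 to 2.30, and Cp, Serpina3n and Itih4 differ by less than 0.1.

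Without control 5, all 9 members tested were called higher, where 23.2% of 16366 genes were called higher and 21.0% lower. In 8 of the 10 members the lowest ALI sample then exceeded the highest control, against 15.9% of genes. Leaving out ALI 2 as well gave the same counts, 9 called and 8 without overlap. In that setting 3583 of 16232 genes were called higher and 3242 lower. The share of all genes without overlap was not counted there. The 4 members Orm1, Lrg1, Steap4 and Hp had in control 5 a value far outside the other controls, whereas Cp was lowest there.

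**Figure D3:**
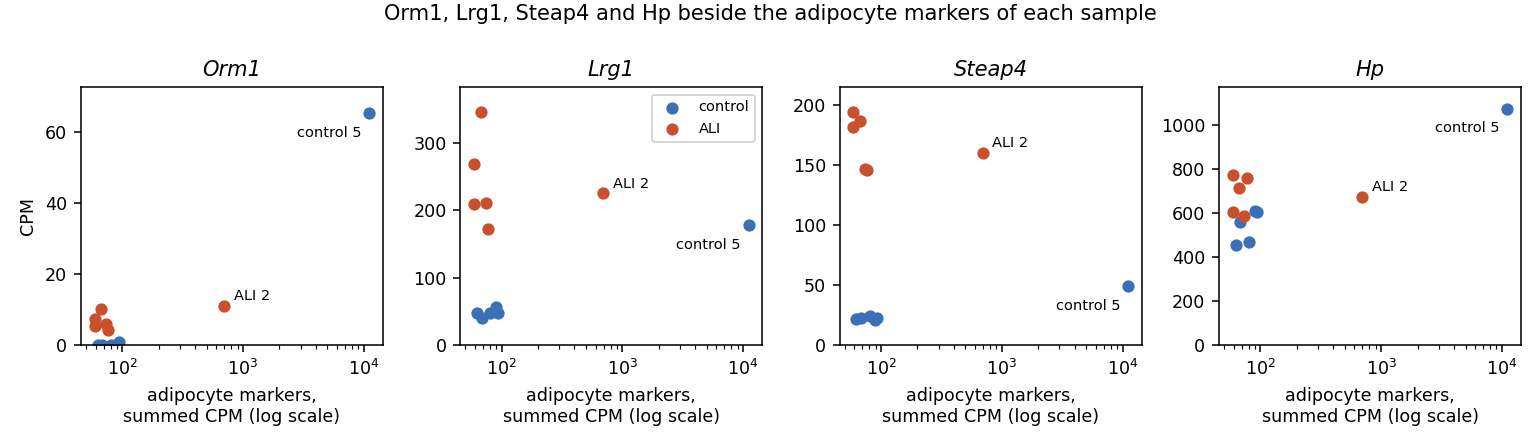
CPM of Orm1, Lrg1, Steap4 and Hp (vertical axes) against the summed CPM of 10 adipocyte markers (horizontal log axis) in each control (blue) and ALI sample (orange). Control 5, at 11091 CPM of markers, is the highest sample for Orm1 and Hp and the highest control for Lrg1 and Steap4, while ALI 2, at 693 CPM, lies within or close to the range of the other ALI samples.

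Levels of different members were compared per kilobase of exon. In controls Hp was the most abundant, at 392 ± 142 CPM per kb (SD, n = 6), followed by Lrg1 at 49.6 ± 37.7 and Lcn2 at 24.8 ± 2.58 CPM per kb. Serpina3n at 17.8 ± 3.49 and Cp at 17.6 ± 2.96 CPM per kb did not differ beyond their spread. Orm1 at 14.3 ± 34.3 and Itih4 at 13.7 ± 1.90 had close means, the Orm1 mean being set by control 5. Orm1 exceeded Itih4 in only 1 of the 6 controls. Steap4 had 8.52 ± 3.45 CPM per kb, and Serpina3m and Orm2 were lowest, at 0.243 ± 0.228 and 0.144 ± 0.164, within their spread of each other. Without control 5 the control level of Lrg1 was 34.2 ± 3.81 and that of Orm1 0.352 ± 0.550 CPM per kb (SD, n = 5).

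In ALI, Hp had 428 ± 48.2 and Lcn2 332 ± 128 CPM per kb (SD, n = 6), and Hp exceeded Lcn2 in 3 of the 6 ALI samples. Lrg1 followed at 170 ± 43.3 CPM per kb and Steap4 at 53.6 ± 6.67. Cp at 44.1 ± 7.20 and Serpina3n at 43.1 ± 7.25 CPM per kb again did not differ beyond their spread, and Itih4 stood at 33.6 ± 10.1. Orm1, Orm2 and Serpina3m were lowest, at 9.56 ± 3.52, 1.79 ± 0.903 and 0.381 ± 0.180 CPM per kb. Over all 10 members the sum was 539 ± 216 CPM per kb in controls and 1116 ± 171 in ALI. Of that sum, Hp made up 73.3% ± 3.43 in controls and 39.0% ± 7.31 in ALI, and Lcn2 4.96% ± 1.22 and 29.1% ± 7.42 (SD, n = 6).

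**Figure D4:**
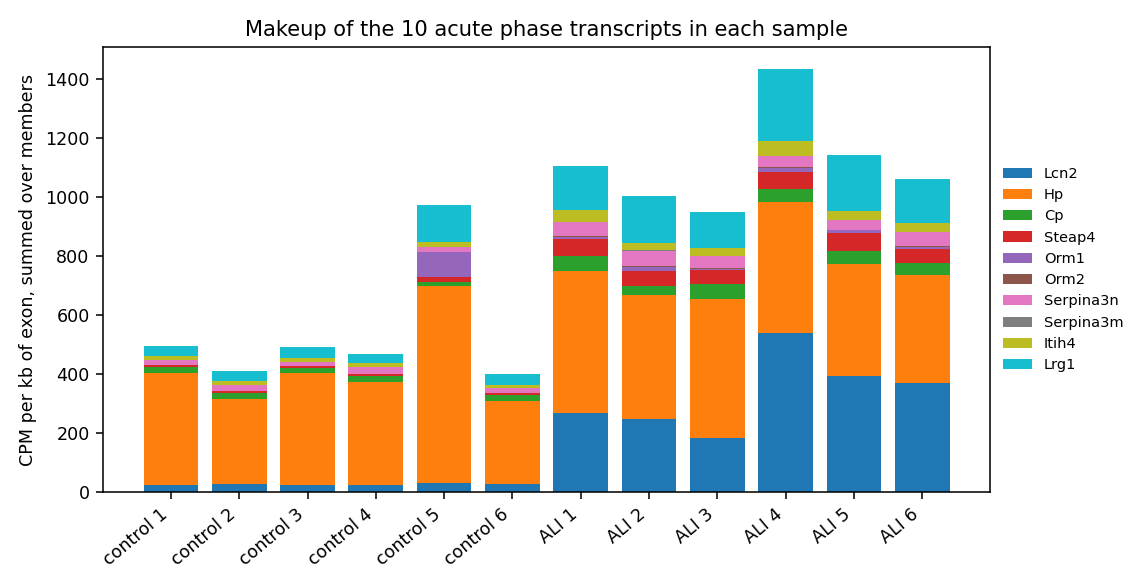
Stacked CPM per kb of exon of the 10 members in each sample. Controls consist mostly of Hp (mean 73.3% of the sum), while ALI samples hold a comparable level of Hp beside a large Lcn2 part (mean 29.1%), and control 5 at 973 CPM per kb is the tallest control.

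Markers of cells that could carry these transcripts were read beside them. Hepatocyte genes were nearly absent: Cyp3a11 was at 0 in every sample and Alb did not exceed 0.939 CPM in controls or 0.289 CPM in ALI. The 10 hepatocyte markers summed to 2.85 to 102 CPM in controls and 2.83 to 255 CPM in ALI, the highest values being control 5 and ALI 2, of which Cyp2e1 alone made 100.1 and 253 CPM. None of the 2 tested hepatocyte markers was called. Of 12 neutrophil markers 10 were tested, of which 9 rose and none fell, with sums of 79.2 to 133 CPM in controls and 210 to 464 CPM in ALI. ALI 3 had the lowest neutrophil sum and the lowest Lcn2, Steap4, Orm1, Orm2 and Lrg1 of the ALI samples. The other members were lowest in ALI 2, ALI 5 or ALI 6. ALI 3 also had the lowest interstitial (2064 CPM) and alveolar macrophage sums (876 CPM) and the highest club cell sum (6389 CPM). ALI 1 and ALI 4 had the highest neutrophil sums, with 699 and 1410 CPM of Lcn2. ALI 5 and ALI 6 had lower neutrophil sums, 349 and 375 CPM, but more Lcn2 than ALI 1, at 1031 and 967 CPM. All 8 interstitial macrophage markers rose, from sums of 428 to 630 CPM to sums of 2064 to 3349 CPM. Of 8 alveolar macrophage markers 6 rose and 1 fell, with sums of 388 to 437 CPM in controls and 876 to 1072 CPM in ALI. Of 8 fibroblast markers 3 rose and 3 fell, with sums of 2224 to 4137 CPM in controls and 5230 to 6703 CPM in ALI. No alveolar type 1 or ciliated cell marker rose, while 6 of 7 and 1 of 6 fell. Of 9 alveolar type 2 markers 3 rose and 1 fell, and of 7 club cell markers none rose and 4 fell, with sums of 10787 to 27265 CPM in controls and 2537 to 6389 CPM in ALI. Of 10 adipocyte markers 5 were tested, of which 1 was lower and 4 were not called, all with control 5 included. The part of these cells in the members' changes was not tested.

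The surrounding pathway was read from 14 lists with 116 genes, of which 83 were tested, 40 rose and 10 fell. Thus 48.2% rising stands beside 18.9% of all genes. The lists were chosen with earlier results of these data known, so these shares are a description and not a test. Without control 5, 44 rose and 11 fell, where 23.2% of 16366 genes were called higher and 21.0% lower. Among inducing cytokines 6 of 7 tested rose and none fell, and Il11 was not called (-0.03). Il1b rose by 3.17, Il6 by 2.46 (3.11 without control 5) and Tnf by 2.34 log2 units, from low levels of 9.07, 0.322 and 1.32 CPM in controls, while Il1a rose by 1.16 and Lif by 0.97. Il17a, a known inducer of Lcn2 in epithelium, was too low to be tested, with 0 counts in the controls and 60 over the ALI samples, from 1 in ALI 3 to 20 in ALI 6. Il17a was singled out after its values were seen. Of the 12 receptor genes 2 rose and 3 fell: Il17ra rose by 0.89 and Il1r1 by 0.66, while Lifr fell by 1.02 and Il17rc by 0.34. Il6ra (-0.04) was not called, and Il6st (-0.26, edgeR adjusted p = 0.112) passed without control 5 (-0.33, edgeR adjusted p = 0.0160).

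Among transcription factors and feedback genes 5 of 10 rose and 2 fell. Socs3, which restrains STAT3 signalling, rose by 1.20 and Nfkbiz, the cofactor of NF-kB needed for Lcn2 transcription in mouse cells, by 1.11. Rela, a subunit of NF-kB itself, fell by 0.28 (edgeR adjusted p = 0.00399), with no overlap between groups. Nr3c1, the glucocorticoid receptor, fell by 0.32, a call lost under 8 alternatives, among them library size alone (edgeR adjusted p = 0.0932). Without control 5 the Nr3c1 change was -0.40 (edgeR adjusted p = 0.000129). Stat3 itself rose by 0.24 (edgeR adjusted p = 0.00765), a call lost without the filter on low counts (0.0617) and with the replicate block (0.0558). Cebpb rose by 0.73 (edgeR adjusted p = 0.0405), a call lost without that filter (0.0979) and when any of 8 samples was left out, with adjusted p up to 0.0945. Without control 5 the Cebpb change was 0.96 (edgeR adjusted p = 0.00379). Cebpd was not called, at 0.21, or 0.33 without control 5. The other acute phase genes known from liver had 7 of 16 tested, of which 6 rose. C3 rose from 617 ± 111 to 2595 ± 447 CPM and Lbp from 63.0 ± 6.87 to 121 ± 5.71 CPM (SD, n = 6), Cfb by 3.73, Cd14 by 3.27 and Il1rn by 3.11, whereas Hpx was not called (0.67, or 0.85 and called without control 5, edgeR adjusted p = 0.0256) and Apcs and Fgb were at 0 in every sample. All 3 tested serum amyloid A genes rose, Saa3 by 7.56, Saa4 by 6.94 and Saa1 by 4.12. Of 2 tested negative acute phase genes, Trf rose by 0.74 and Rbp4 was not called. Rbp4 had 176 CPM in control 5 and 14.4 to 19.9 CPM in the other controls, and 28.9 CPM in ALI 2 and 6.63 to 10.6 CPM in the other ALI samples. Its log2 difference was -1.86 with all samples, -0.50 without control 5 (edgeR adjusted p = 0.287), -2.35 without ALI 2 (edgeR adjusted p = 0.0419) and -0.99 without both (edgeR adjusted p = 4.04e-05).

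Partners of the member proteins moved in several directions. Of 13 iron and haem genes 8 rose and 1 fell. Ltf, the lactoferrin of neutrophil granules and glands, rose by 3.54 and Slc11a1, a metal exporter of phagosomes, by 2.97, while Hmox1, which degrades haem, rose by 1.39 and Fth1, ferritin heavy chain, by 1.26. The single gene that fell was Slc22a17, described as a receptor for lipocalin 2, from 14.1 to 18.7 CPM in controls to 7.33 to 11.5 CPM in ALI (log2 change -0.72, edgeR adjusted p = 0.000234). Cd163, the macrophage receptor for haptoglobin bound to haemoglobin, was not called (0.45, edgeR adjusted p = 0.385). Without ALI 2, which held 19.5 CPM of it, the Cd163 difference was -0.0020.

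Of the 9 other genes listed from the Serpina3 cluster 5 were tested and 3 rose, Serpina3i by 1.51, Serpina3h by 1.29 and Serpina3g by 1.27, close to the 1.28 of Serpina3n. These are close relatives that can share reads. Of 4 tested target proteases none rose and Gzmb fell by 1.03. Ctsg, which encodes cathepsin G, and Elane, which encodes neutrophil elastase, were too low to be tested. Ctsg had 2 counts over the controls and 44 over the ALI samples, and Elane had 7 and 87. Both were named after their values were seen. Neither of 2 tested Serpina1 genes was called. Of 6 tested ITIH family genes and partners 2 rose, Has2, which makes the hyaluronan that ITIH heavy chains attach to, by 2.27 and Itih1 by 1.26. In the STEAP family Steap2 rose by 0.79 and Steap3 fell by 0.37 (edgeR adjusted p = 0.0222). The Steap3 call was lost with library size alone (0.0716) and without control 2, control 6, ALI 4 or ALI 5 (0.0508 to 0.0542). Without control 5 the Steap3 change was -0.44 (edgeR adjusted p = 0.00161). Steap1 was not called, at 0.98 (edgeR adjusted p = 0.118), but passed without control 3 (1.44, edgeR adjusted p = 0.0249). Of 7 genes of the TGF-beta pathway that Lrg1 acts on, 3 rose and 2 fell. Tgfbr1 rose by 1.46 and Tgfb1 by 0.61, while the endothelial receptors Eng and Acvrl1 fell by 1.05 and 1.08, alongside capillary endothelial markers of which 7 of 8 fell. Of 6 further genes listed as the lipocalin family 3 were tested and none was called. Orm2, a member of the same family that rose, was not in that list.

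**Figure D5:**
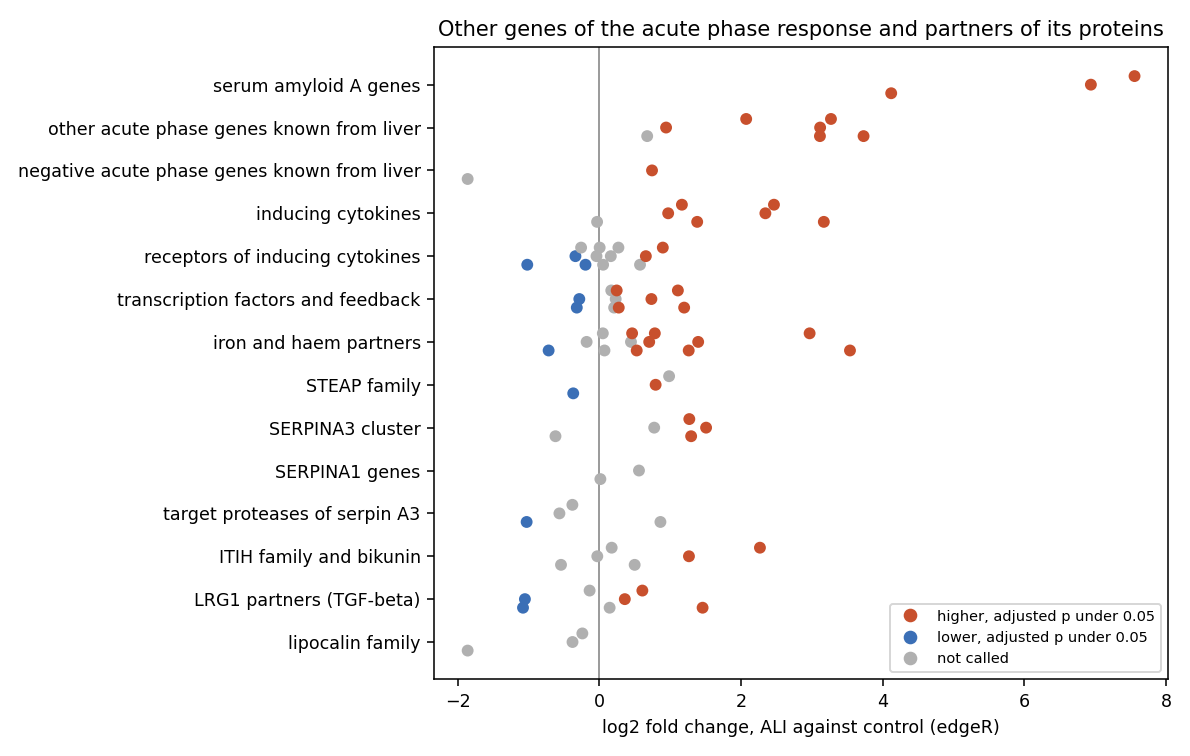
Log2 fold change of ALI against control for each tested gene of 14 lists, coloured by call at an edgeR adjusted p under 0.05. The 3 serum amyloid A genes and 6 of the 7 cytokines lie to the right, with Il11 at -0.03, the receptors of these cytokines run from -1.02 to 0.89, and the genes that fell include Slc22a17 at -0.72, Eng at -1.05 and Acvrl1 at -1.08.

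The transcripts most like each member were sought by Pearson correlation over the 12 samples after the group means were subtracted, among genes of at least 5 CPM, and are given as a description. Lcn2 was closest to Zc3h12a, a ribonuclease that degrades inflammatory mRNAs (r = 0.967), followed by Lpcat2 (0.967) and Tcirg1 (0.952), and Zc3h12a stayed at 0.985 without control 5. Cp was closest to Edc4 (r = 0.963, or 0.942 without control 5), Orm2 to Mob3a (0.909, or 0.906) and Serpina3n to Rbms2 (0.870, or 0.871). For members high in control 5 the likeness rested partly on that sample: Steap4 and Traf4 went from 0.961 to 0.690 without it, Hp and Mgst1 from 0.945 to 0.786, Orm1 and Idh1 from 0.984 to 0.879, and Lrg1 and Ninj1 from 0.984 to 0.918. Itih4 was closest to Ccdc191 (0.860, or 0.840). With 12 samples and so many genes compared, the highest r of each member is high by selection.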

How the data were processed

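RNA was extracted with TRIzol, libraries were made with a NEBNext Ultra kit and sequenced on a NovaSeq instrument, per the labels' protocols. The authors deposited whole-number counts per gene, not normalised. Per the submitters' processing notes the tools were fastp, HISAT2 and featureCounts on GRCm38 (mm10). Strand and multi-mapping settings are not given in the sources used here. The table had 0 columns of other samples and 0 lines without a gene ID, and its gene length was used for levels per kilobase. Coordinates are GENCODE M21 (GRCm38) by gene ID, and promoter sequences are RefSeq (GRCm38.p6).

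Genes were filtered with filterByExpr (minimum count 10), scaled by TMM and tested in edgeR 4.0.16 (R 4.3.3) by the robust quasi-likelihood F test on all 12 samples by group alone, and p-values were adjusted by Benjamini-Hochberg over 16185 genes. The standard error is the log2 change divided by the square root of F, and log CPM used a prior count of 2. Ratios were compared by exact permutation in scipy 1.17.1. Alternatives were DESeq2 1.42.0, other scalings, no filter, the replicate number as a block and samples left out. The script was tested on simulated data. No 2 samples of a group were alike within counting noise (lowest chi-square per degree of freedom 6.91 among 30 pairs), so each counted as 1 sample.

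The members, lists, tests and named genes were chosen with earlier results of these data known. Named were all members, up to 4 called genes with the smallest p per list, a fixed set (Il6, Il1b, Tnf, Stat3, Cebpb, Cebpd, Socs3, Slc22a17, Cd163, Hmox1) and the closest transcripts of each member; further list genes were named after their values were seen. Reads carry no molecular identifiers.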

Additional observations from a re-analysis of the deposited data

Results flagged for a closer look

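Among 32 sets of 6 values checked for a sample far from the rest, 8 held a sample whose gap to its neighbour exceeded 0.625 of the range. This limit gives about 1 in 20 for independent, normally distributed values. The sets share the same samples and most hold unlogged CPM, so the count of 8 cannot be set against that rate. Each far sample was control 5 or ALI 2. Control 5 was the far sample for Hp (1076 CPM), Steap4 (49.0 CPM), Orm1 (65.3 CPM) and Lrg1 (178 CPM). It was also far from the other controls in the summed adipocyte markers (11091 CPM) and hepatocyte markers (102 CPM, nearly all Cyp2e1). ALI 2 stood apart from the other ALI samples in the same sums, at 693 CPM of adipocyte and 255 CPM of hepatocyte markers, and in no member. The other 6 members had no such sample in either group.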

How the results depend on the processing

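The count of 7 members called was the same under DESeq2, DESeq2 size factors, library size alone, no filter and the replicate block, and ran from 7 to 9 when samples were left out in turn. Genes called ran from 5169 to 7223 in that series. Over all genes DESeq2 called 6441 of 21271 and the fit without the filter 5390 of 30737. DESeq2 size factors and library size alone gave 5910 and 5492 of 16185. Deviations of same-numbered samples correlated at 0.27 in 1 pair and below 0 in the other 5. Differently numbered samples were not compared, so this cannot settle whether the numbers pair the samples. With the replicate block 4822 genes were called. The block changed the call of no member, and Stat3 (adjusted p = 0.0558) and Nr3c1 (0.0757) lost theirs. Orm1 turned positive with the block (3.47, adjusted p = 0.0831), without control 5 (4.68) and without control 5 and ALI 2 (4.53), and its range over single samples left out was -0.83 to 4.68. DESeq2 gave Orm1 no adjusted p. Hp passed without control 5 (adjusted p = 0.0126). Cd163 turned to -0.086 without control 5 and ALI 2, and ran from -0.0020 to 0.61 over single samples. The difference in the Orm1 to Orm2 ratio ran from -0.77 to 1.95 when single samples were left out and was 0.65 with 2 counts added, and that of Serpina3n to Serpina3m ran from 0.0094 to 0.62 and was 0.54. None of these ratio differences passed. Il6ra ran from -0.14 to 0.054 over single samples, and Il11 from -0.27 to 0.21 and at 0.10 without control 5 and ALI 2, none of them called. Depth limits Orm2 and Serpina3m, with 12 and 40 counts over the controls.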
